A study of Rattus norvegicus with 12 samples.

Results

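The genes examined were 5 genes often read together as markers of a chitinase and alternative activation response, Chi3l1, Chia, Chit1, Retnla and Arg1, in rat lung after inhalation of a plant polysaccharide. They were found by symbol among 30045 gene symbols, and all 5 were present and passed the count filter that left 15019 genes for testing. RNA was sequenced from a piece of lung of each of 12 male F344/DuCrl rats of the Fischer strain, 3 months old when bought. One group of 6 rats inhaled crystalline nanocellulose (CNC) at 20 mg/m3 in whole-body chambers for 6 hours on each of 14 days of exposure (5 days per week), and the other group of 6 inhaled air in its place. Lungs were taken 1 day after the last exposure in both groups.

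Mammalian chitinases belong to the glycoside hydrolase family GH18, which holds both enzymes that cut chitin and chitinase-like proteins that bind it without cutting. Chitin and cellulose are both linear sugar polymers of cell walls or shells, chitin of N-acetylglucosamine and cellulose of glucose, and mammals make no enzyme that digests cellulose. In mouse lung, Chia, Retnla and Arg1 are well known to be induced by interleukin 4 and interleukin 13 through the receptor chain Il4r and the transcription factor Stat6, Chia and Retnla in epithelium and macrophages and Arg1 in macrophages.

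Chi3l1, Chia, Retnla and Arg1 were higher in CNC lungs and Chit1 was slightly lower. All 4 rises and the fall of Chit1 passed the quasi-likelihood test of edgeR at a Benjamini-Hochberg adjusted p of 0.05, a threshold that 24.6% of the tested genes passed, 13.2% as higher and 11.4% as lower in CNC. In the 4 genes that rose, each of the 6 CNC rats lay above every air rat, a separation seen in 6.82% of tested genes. Levels are TMM-scaled CPM, the counts of a gene relative to the scaled total of its library, which are not divided by gene length, so they were compared between groups and not between genes. Lung markers were abundant in both groups, with Sftpc of alveolar type 2 cells at a mean of 13413 CPM in CNC rats and 10230 CPM in air rats, and Scgb1a1 of club cells at 4743 CPM in CNC rats and 5728 CPM in air rats. Library totals ran from 8693259 to 16603697 counts. In a bulk piece of lung, a change in the number of cells of a type and a change in RNA per cell cannot be told apart.

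**Figure D1:**
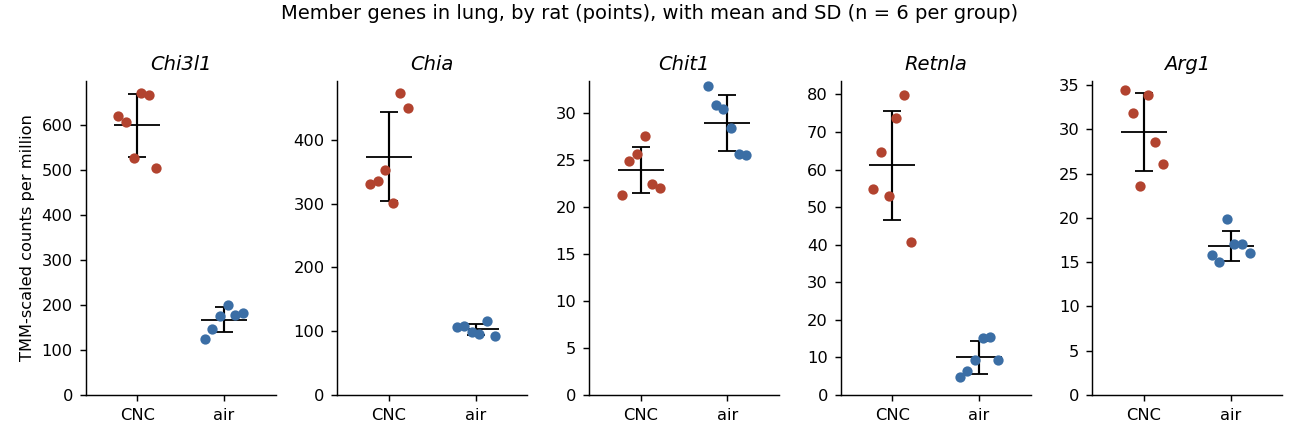
TMM-scaled CPM (vertical axis, linear from 0, a separate scale per gene) of Chi3l1, Chia, Chit1, Retnla and Arg1 in 6 CNC rats (left, red) and 6 air rats (right, blue). Points are rats, and bars give the mean and SD. In all panels except that of Chit1 every CNC point lies above every air point; for Chit1, CNC rats ran from 21.2 to 27.5 CPM and air rats from 25.5 to 32.8 CPM.

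Chi3l1 encodes a secreted chitinase-like protein that binds chitin but does not cut it, and is made by macrophages, neutrophils and epithelium. It had a lowest, median and highest level of 505, 614 and 670.1 CPM in CNC rats, against 124, 177 and 199 CPM in air rats. The lowest CNC rat stood 2.53-fold above the highest air rat. The change was 3.59-fold (log2 fold change 1.84 ± 0.10 SE, edgeR adjusted p = 2.84e-08), the 35th largest rise among 15019 tested genes and the 6th smallest p. Its level varied less between CNC rats than between air rats, with a coefficient of variation of 11.6% in CNC and 16.3% in air (n = 6 each).

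Chia encodes acidic mammalian chitinase, a secreted enzyme that does cut chitin. It had a lowest, median and highest level of 300.4, 344 and 473 CPM in CNC rats, against 93.0, 103 and 116 CPM in air rats. CNC replicates 5 and 6 were the highest, at 473 and 449 CPM, and the other 4 CNC rats lay between 300.4 and 352 CPM, while the 6 air rats were close together. The change was 3.62-fold (log2 fold change 1.86 ± 0.10 SE, edgeR adjusted p = 2.84e-08), the 33rd largest rise, and the coefficient of variation was 18.8% in CNC rats and 8.38% in air rats. In the RefSeq gene table of assembly GRCr8, a pseudogene named Chia-ps1 overlaps Chia, and how reads shared between them were counted is not given in the sources used here.

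Chit1 encodes chitotriosidase, the other chitin-cutting enzyme of the family, which is known in human as a product of macrophages. It had a lowest, median and highest level of 21.2, 23.7 and 27.5 CPM in CNC rats, against 25.5, 29.4 and 32.8 CPM in air rats. The groups overlapped, although all 6 CNC rats lay below the median of the air rats and 4 of them below every air rat. Chit1 fell by 0.27 ± 0.08 (SE) on the log2 scale, or 1.21-fold (edgeR adjusted p = 0.0168; 2-sided exact permutation test of log2 CPM, p = 0.0152). Of 14 tested circadian clock genes, CNC rats had 7 called higher and 5 called lower, beside 13.2% and 11.4% of all tested genes. With the first principal component of these genes as a covariate (the clock covariate), the Chit1 call was lost at almost the same size (log2 fold change -0.28, edgeR adjusted p = 0.317). The clock covariate differs between the groups, so this fit cannot fully separate it from the exposure. Among the counts of both chitin-cutting enzymes together, Chia made up between 91.6 and 95.5% in CNC rats and between 76.5 and 82.0% in air rats.

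Chi3l1 and Chit1 lie close together on chromosome 13 of the RefSeq assembly GRCr8, with 1 gene annotated between them, and Chia lies on chromosome 2. The RefSeq windows around their starts, from 250 bases before to 50 after, are shown because Chia and Chi3l1 changed by nearly the same factor and Chit1, beside Chi3l1, did not. Capitals mark matches, on either strand, to any of 5 motifs, none of which overlapped another in these windows. One was the core promoter box TATAAA, and another the loose C/EBP-type site TTNNGNAA. The third was the AP-1-type site TGANTCA. The last 2 were STAT-type sites made of TTC and then GAA, with 4 bases between them in the STAT6-type and 3 in the other.
Chia, chr2:196302437-196302736, plus strand: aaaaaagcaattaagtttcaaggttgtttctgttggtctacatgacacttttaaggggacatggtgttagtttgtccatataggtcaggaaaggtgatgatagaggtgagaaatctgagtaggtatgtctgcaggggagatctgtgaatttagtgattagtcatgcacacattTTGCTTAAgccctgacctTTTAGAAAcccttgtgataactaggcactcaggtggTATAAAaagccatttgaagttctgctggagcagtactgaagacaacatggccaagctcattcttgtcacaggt
Chi3l1, chr13:48193589-48193888, plus strand: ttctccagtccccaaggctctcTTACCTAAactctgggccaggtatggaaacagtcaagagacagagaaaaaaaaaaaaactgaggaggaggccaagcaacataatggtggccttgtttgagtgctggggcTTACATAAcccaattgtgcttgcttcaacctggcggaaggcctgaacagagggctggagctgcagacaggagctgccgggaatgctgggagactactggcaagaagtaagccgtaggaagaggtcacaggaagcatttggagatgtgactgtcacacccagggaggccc
Chit1, chr13:48117636-48117935, plus strand, the first of its 2 annotated starts: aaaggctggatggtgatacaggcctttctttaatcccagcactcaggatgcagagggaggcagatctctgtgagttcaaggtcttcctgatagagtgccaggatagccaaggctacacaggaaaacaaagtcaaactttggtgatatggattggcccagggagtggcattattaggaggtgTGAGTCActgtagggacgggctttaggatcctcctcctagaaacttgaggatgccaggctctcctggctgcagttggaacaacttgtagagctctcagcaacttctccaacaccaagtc
The Chia window held a TATAAA starting 23 bases before the start and 2 C/EBP-type matches. The Chi3l1 window held 2 C/EBP-type matches, and the Chit1 window shown held 1 AP-1-type match. The window at the second annotated start of Chit1, which is not shown, held a C/EBP-type match, so this motif did not set Chit1 apart. Among 33469 RefSeq windows of the same length, 14.2% held TATAAA, 41.3% a C/EBP-type match, 7.33% an AP-1-type match, 7.28% a STAT6-type match and 8.87% the other STAT-type match. None of these 3 windows held either STAT-type run of letters, which says only that those letters are not in these windows. A RefSeq window was found for 4 of the 5 genes, all except Arg1.

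Of the rest of the chitinase family only Ctbs passed the filter, and it was not called. Ctbs, the lysosomal chitobiase that takes apart small chitin-like sugars released from glycoproteins, ran from 47.3 to 53.5 CPM in CNC rats and from 45.8 to 53.7 CPM in air rats. Its log2 fold change was 0.00 ± 0.05 SE (edgeR adjusted p = 0.97). Counted against Ctbs in the same library, Chi3l1 rose 3.59-fold and Chia 3.57-fold, and Chit1 fell by 0.27 on the log2 scale (95% interval of the log2 difference from -0.48 to -0.06), with exact permutation p of 0.00216, 0.00216 and 0.013, or 0.00361, 0.00361 and 0.0162 adjusted over 5 family ratios. The value of 0.00216 is the smallest that 6 rats against 6 allow. Chid1, a chitinase-like gene, had 14 counts over all CNC libraries, 9 of them in CNC replicate 5, and none over the air libraries; it was below the filter. Whether such near-absent counts reflect the annotation or counting behind the table was not tested. Chi3l3 was listed at 0 in all 12 libraries, where 3 counts over a group would be 0.0391 CPM in CNC and 0.0404 CPM in air, a limit that covers counting error only.

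Retnla encodes a small secreted protein of the resistin family, known in mouse as RELM-alpha or FIZZ1. It showed the largest change of the 5 genes and the 9th largest rise among all tested genes. It had a lowest, median and highest level of 40.8, 59.7 and 79.8 CPM in CNC rats, against 4.76, 9.16 and 15.5 CPM in air rats. The lowest CNC rat, replicate 6, stood 2.63-fold above the highest air rat, replicate 5. The change was 6.25-fold (log2 fold change 2.64 ± 0.23 SE, edgeR adjusted p = 1.91e-06). Retnla also varied most between rats: its highest air rat had 3.26 times the level of its lowest, and its highest CNC rat 1.96 times the level of its lowest. With the clock covariate the log2 fold change was 1.95 (edgeR adjusted p = 0.0141), which is over 1.5 times smaller as a fold.

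Retnlg, which lies next to Retnla on chromosome 11 in GRCr8 with no gene annotated between them, encodes another resistin family protein and is a known neutrophil product in rodents. It ran from 8.17 to 12.3 CPM in CNC rats and from 7.89 to 16.5 CPM in air rats, with a log2 fold change of -0.17 ± 0.16 SE (edgeR adjusted p = 0.50). The ratio of Retnla to Retnlg counts within a library was 6.98-fold higher in CNC than in air (95% interval of the log2 difference from 2.02 to 3.61, exact permutation p = 0.00216, adjusted p = 0.00361 over 5 family ratios), and the groups did not overlap. Retnla made up between 77.4 and 89.8% of the counts of the 4 resistin family genes in CNC rats and between 24.5 and 53.4% in air rats. The other 2 family genes were nearly silent: Retn had 6 counts over the CNC libraries and 16 over the air libraries, and Retnlb had 1 over the CNC libraries and 0 over the air libraries.

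The RefSeq windows of Retnla and Retnlg share a similar stretch, shown here because the 2 neighbours differed in response. Capitals mark bases that differ or are inserted relative to the other gene.
Retnla, chr11:65426345-65426436, minus strand: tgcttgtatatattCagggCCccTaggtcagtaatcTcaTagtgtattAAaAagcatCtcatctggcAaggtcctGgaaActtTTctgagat
Retnlg, chr11:65395590-65395679, minus strand: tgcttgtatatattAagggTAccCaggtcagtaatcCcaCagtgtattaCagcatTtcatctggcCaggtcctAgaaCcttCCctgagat
Over 92 aligned columns, 77 bases were identical (83.7%), 13 differed and 2 were gaps. The stretch runs from 40 bases before to 50 bases after the RefSeq start of Retnlg, but from 250 to 159 bases before the RefSeq start of Retnla. The whole Retnla window held 1 AP-1-type match and the Retnlg window 1 STAT6-type match, TTCACAGGAA, 111 bases before its start. The STAT6-type match lies before the shared stretch and the AP-1-type match after it. In each case the corresponding place in the other gene lies outside its window, so these matches do not compare the 2 genes.

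Arg1 encodes arginase, the enzyme that splits arginine into ornithine and urea and so feeds polyamine and proline synthesis. It had a lowest, median and highest level of 23.6, 30.2 and 34.5 CPM in CNC rats, against 15.1, 16.5 and 19.8 CPM in air rats. The groups did not overlap, but the gap was narrow, with the lowest CNC rat 1.19-fold above the highest air rat. The change was 1.77-fold (log2 fold change 0.83 ± 0.10 SE, edgeR adjusted p = 1.92e-05), the 239th largest rise. The mitochondrial arginase Arg2 averaged 1.77 ± 0.32 CPM in CNC rats and 1.18 ± 0.49 CPM in air rats (SD, n = 6 each) and was not called (edgeR adjusted p = 0.105). The ratio of Arg1 to Arg2 was 1.18-fold higher in CNC, with a 95% interval of the log2 difference from -0.35 to 0.84 (exact permutation p = 0.37), and a difference between the 2 arginases in their change was not detectable. Arg1 is also a liver enzyme. The summed hepatocyte markers (8 genes) ran from 16.6 to 25.5 CPM in CNC rats and from 15.4 to 29.0 CPM in air rats, almost all of it Cyp2e1, while Alb had 12 counts over the CNC libraries and 15 over the air libraries, and Cps1 had 10 over the CNC libraries and 19 over the air libraries.

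How far the 5 genes moved differed from gene to gene. The log2 ratio of the counts of 2 genes in the same library was compared between CNC and air for all 10 pairs, a comparison that does not depend on scaling. The changes of Chi3l1 and Chia were not told apart: their ratio differed between the groups by 0.01 on the log2 scale, with a 95% interval from -0.43 to 0.44 (exact permutation p = 0.972). As a fold, that interval runs from 0.743 to 1.36. Retnla rose more than Chi3l1 (Chi3l1 to Retnla ratio, log2 difference -0.83, interval from -1.28 to -0.37, exact permutation adjusted p = 0.00541), although the ratios of the groups overlapped. Retnla also rose more than Arg1, by 3.66-fold (exact permutation adjusted p = 0.00309). Arg1 rose less than Chi3l1 and less than Chia, by about the same step (log2 differences of 1.04 and 1.03, exact permutation adjusted p = 0.00309 for each). Against Chia the larger rise of Retnla passed only narrowly (log2 difference -0.84, interval from -1.61 to -0.06, exact permutation adjusted p = 0.0337). That call was lost without CNC replicates 1, 2, 3, 4 or 5 or air replicates 1, 2, 3 or 6 in turn, where the log2 difference ran from -0.87 to -0.64 and the exact permutation adjusted p from 0.0529 to 0.077. Chit1 differed from each of the other 4 genes, with a log2 difference of 2.12 for Chi3l1, 2.11 for Chia, 2.95 for Retnla (as -2.95 for Chit1 over Retnla) and 1.08 for Arg1 (as -1.08 for Chit1 over Arg1), each with exact permutation adjusted p = 0.00309.

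**Figure D2:**
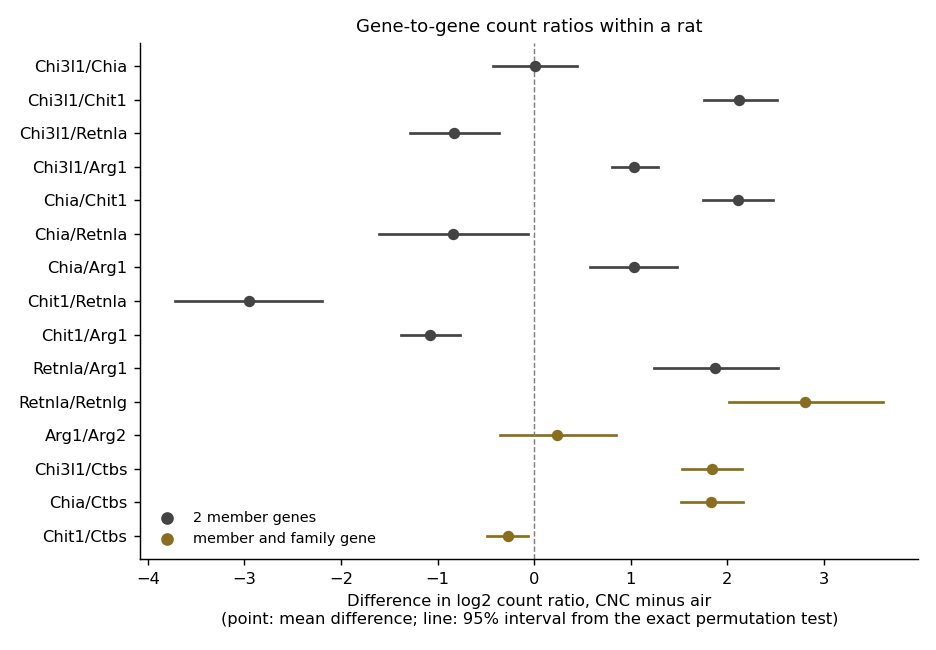
Difference between CNC and air rats in the log2 ratio of 2 genes' counts in the same library (horizontal axis), for the 10 pairs among the 5 genes (grey) and for 5 ratios to a gene of the same family (brown); points are differences of group means (6 rats each) and lines 95% intervals from the exact permutation test. The interval includes 0 for Chi3l1 to Chia and for Arg1 to Arg2, and lies farthest from 0 for Chit1 to Retnla (-2.95) and Retnla to Retnlg (2.80).

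Within a group, rats with more Chi3l1 tended to have more Retnla, though this did not pass adjustment over 20 relations. Over the 6 CNC rats, log2 CPM of Chi3l1 and Retnla had Pearson r = 0.909 (exact permutation p = 0.00694, adjusted p = 0.139) and Spearman rho = 0.886 (exact permutation p = 0.0333, adjusted p = 0.50). Over the 6 air rats r was 0.901 (exact permutation p = 0.0167, adjusted p = 0.167) and rho was 0.714 (exact permutation p = 0.136, adjusted p = 0.50). Without the 2 rats farthest from the median Chi3l1 level, r was 0.791 in CNC and 0.506 in air, so the relation in air rests largely on those rats. Chi3l1 and Chia gave r = -0.27 in CNC rats and -0.435 in air rats (exact permutation p = 0.618 and 0.411). Across the 10 pairs in each of the 2 groups, 2 of 20 Pearson coefficients had an unadjusted exact permutation p under 0.05 and 0 of 20 passed after adjustment, as did 1 of 20 and 0 of 20 Spearman coefficients.

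**Figure D3:**
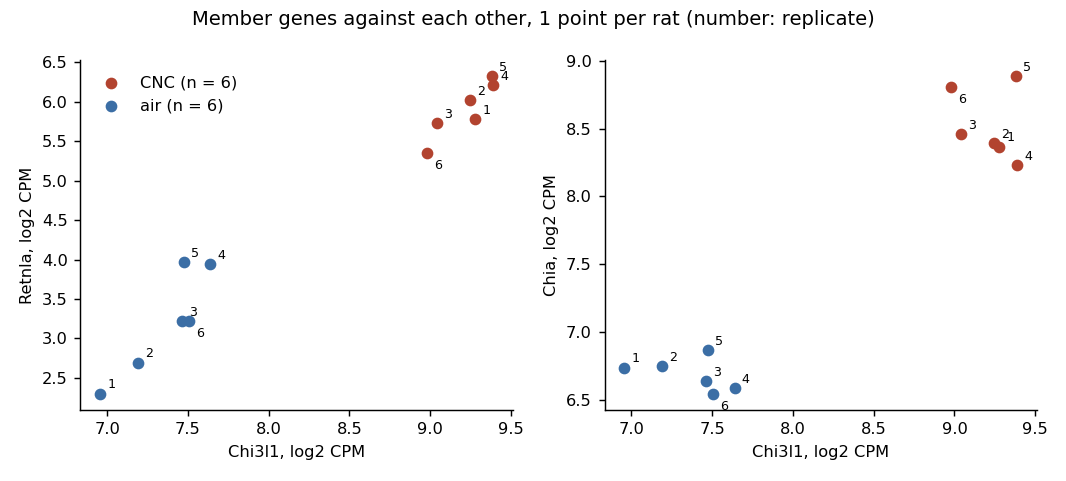
Log2 CPM of Retnla (left panel) and of Chia (right panel) against log2 CPM of Chi3l1, 1 point per rat, CNC in red and air in blue, with the replicate number beside each point. In the left panel points rise together within each group (r = 0.909 in CNC, 0.901 in air, neither passing adjustment); in the right panel they do not (r = -0.27 in CNC, -0.435 in air).

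Genes whose profile was nearest to each gene were found by the root mean square difference of log2 CPM over the 12 rats, after centring each gene on its own mean, among 12664 other genes of at least 1 CPM. Nearest to Chi3l1 were Mreg (0.199 log2 units), Ly6i (0.213) and Il1r2 (0.226), where the median gene lay at 0.954. Nearest to Chia were Nr4a3 (0.285), Il1r2 (0.29) and Kng1 (0.315), and nearest to Retnla were Mmp12 (0.337), Itih1 (0.382) and Tmem45b (0.395). Arg1 had closer matches in Ctsz (0.0655), Ifi30 (0.0717) and Ctsd (0.0878), and Chit1 in Esam (0.0647), Nos3 (0.0681) and Cbx7 (0.0715), as genes of small change lie nearer to each other on this measure.

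All 3 listed arginine transporter genes rose. Of 23 tested genes of arginine and polyamine metabolism other than Arg1, 6 were called higher and 4 lower in CNC. Over all tested genes 13.2% were called higher and 11.4% lower. The median log2 fold change of the 23 genes was 0.12, and that over all tested genes was -0.0026. Slc7a7, a transporter of basic amino acids, averaged 63.8 ± 6.4 CPM in CNC rats and 32.2 ± 6.6 CPM in air rats, a 1.99-fold change, and 2 others, Slc7a2 and Slc7a1, rose 1.84-fold and 1.55-fold (edgeR adjusted p = 1.53e-05, 0.000208 and 0.000382). Odc1, which turns ornithine into the first polyamine, rose 1.26-fold (edgeR adjusted p = 1.09e-05), and Azin2 and Oaz1 rose too. Ass1, which rebuilds arginine from citrulline, fell 1.47-fold, and the endothelial nitric oxide synthase Nos3, which competes with arginase for arginine, fell 1.24-fold (edgeR adjusted p = 0.000157 and 0.0132), and Azin1 and Ddah2 fell as well. The inducible nitric oxide synthase Nos2 was below the filter, with 45 counts over the CNC libraries and 34 over the air libraries. The Oaz1 call was lost without CNC replicates 3 or 4 or air replicates 2, 5 or 6 in turn (edgeR adjusted p from 0.0565 to 0.0697), with scaling by library size alone and without CNC replicates 3 and 6 together, and the Azin2 and Ddah2 calls without air replicates 4 and 5 together. With the clock covariate, Slc7a7, Slc7a2 and Odc1 kept their calls (edgeR adjusted p = 0.0486, 0.00241 and 0.0313) and the other called genes named here, apart from Arg1, lost theirs. The log2 fold change of Slc7a2 was then 1.495, against 0.88 without the covariate. Of the genes that lost their calls, Slc7a1 (0.65), Nos3 (-0.35), Azin2 (0.49) and Ddah2 (-0.23) had log2 fold changes at least as large as without it, and Ass1 (-0.26), Azin1 (-0.049) and Oaz1 (0.0022) smaller ones.

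**Figure D4:**
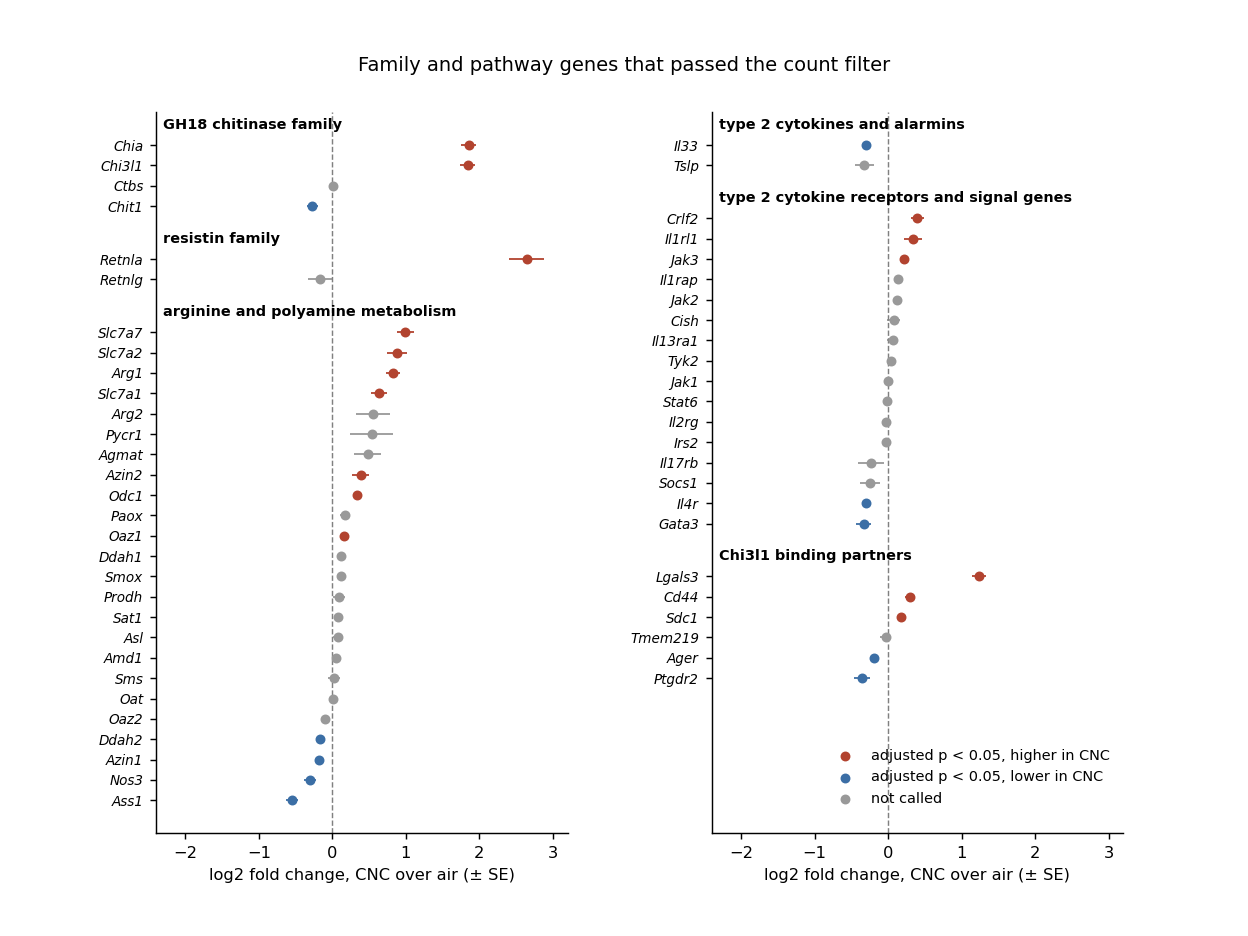
Log2 fold change, CNC over air, with its SE (horizontal axis), of the tested genes of 6 lists, with genes called higher in red, lower in blue and not called in grey (edgeR adjusted p at 0.05, 6 rats per group). Retnla at 2.64, Chia at 1.86 and Chi3l1 at 1.84 lie far to the right of the family genes Retnlg (-0.17), Ctbs (0.00) and Chit1 (-0.27). The type 2 cytokine receptor and signal genes lie between -0.33 (Gata3) and 0.40 (Crlf2).

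The cytokines that induce Chia, Retnla and Arg1 in mice were almost undetected. Il4 had 2 counts over the CNC libraries and 1 over the air libraries, and Il13 had 2 over the CNC libraries and 3 over the air libraries, out of 76796543 counts in CNC and 74293181 in air. Il5 and Il9 were listed at 0 in all 12 libraries, and Il25 had 10 counts over the CNC libraries and 8 over the air libraries. Of the alarmins that act upstream of them in type 2 immunity, Il33 fell 1.23-fold, at 388 ± 20.4 CPM in CNC rats and 479 ± 34.0 CPM in air rats (SD, n = 6 each, edgeR adjusted p = 0.000303), and Tslp averaged 2.72 CPM in CNC rats and 3.42 CPM in air rats (edgeR adjusted p = 0.094). At these counts a difference in Il4 or Il13 was not detectable. Whether the absent or near-absent counts of these cytokines reflect the annotation or counting behind the table was not tested.

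Of 16 tested receptor and signal genes 3 were called higher, 2 lower and 11 not called (median log2 fold change 0.02), beside 24.6% of all tested genes called. The called changes were between 1.17-fold and 1.32-fold in size. Il4r, the shared receptor chain of interleukin 4 and 13, fell 1.23-fold, at 173 ± 12.4 CPM in CNC rats and 213 ± 21.1 CPM in air rats (SD, n = 6 each, edgeR adjusted p = 0.00279). Stat6 averaged 172 ± 4.9 CPM in CNC rats and 174 ± 9.0 CPM in air rats (log2 fold change -0.01 ± 0.04 SE, edgeR adjusted p = 0.848), and Il13ra1 41.5 CPM in CNC rats and 39.7 CPM in air rats (edgeR adjusted p = 0.594). Crlf2, the receptor of Tslp, rose 1.32-fold and Jak3 1.17-fold. The receptor of Il33, Il1rl1, was called higher (1.27-fold, edgeR adjusted p = 0.0462), and Gata3, which directs type 2 lymphocytes, lower (1.26-fold, edgeR adjusted p = 0.0314). The Il1rl1 call was lost without CNC replicates 1, 2 or 6 or air replicates 1, 2, 3 or 6 in turn (edgeR adjusted p from 0.0544 to 0.0982), with 4 other scalings, filters or tools and without CNC replicates 3 and 6 together. The Gata3 call was lost with air replicates 4 and 5 left out together and without CNC replicates 1, 2, 4 or 5 or air replicates 1, 3 or 5 in turn (edgeR adjusted p from 0.0522 to 0.0723). Without CNC replicate 1, CNC replicate 2, air replicate 1 or air replicate 3, 3 genes of this list were called, and with the clock covariate 0 were (Il33 lost its call with it too, edgeR adjusted p = 0.424). With the covariate the log2 fold changes of Gata3 (-0.55) and Il1rl1 (0.40) were larger than without it, and those of Crlf2 (0.21), Il4r (-0.18), Il33 (-0.12) and Jak3 (-0.0048) smaller.

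Other genes of alternative macrophage activation were split. Of 17 other tested targets 6 were called higher and 3 lower (median log2 fold change 0.23), beside 13.2% and 11.4% of all tested genes. The chemokine Ccl22 rose 5.09-fold, at 2.83 ± 0.69 CPM in CNC rats and 0.588 ± 0.37 CPM in air rats (SD, n = 6 each, edgeR adjusted p = 4.33e-05), Ccl17 rose 3.56-fold and the inhibitory Fc receptor Fcgr2b rose 2.41-fold. Irf4, Matk and Pparg rose by smaller amounts, and Pparg lost its call without CNC replicates 1 or 2 in turn (edgeR adjusted p from 0.0562 to 0.0566). In the other direction, the lipoxygenase Alox15, an interleukin 4 and 13 target, fell 2.35-fold, at 10.53 ± 0.97 CPM in CNC rats and 24.6 ± 6.8 CPM in air rats (SD, n = 6 each, edgeR adjusted p = 2.59e-05). The eosinophil attractant Ccl24 fell 2.102-fold and Tgm2 1.13-fold. The mannose receptor Mrc1, at 210 CPM in CNC rats and 180 CPM in air rats, was not called (edgeR adjusted p = 0.203), nor was Ccl11 (edgeR adjusted p = 0.387), and Pdcd1lg2 had 34 counts over the CNC libraries and 21 over the air libraries. With the clock covariate Ccl22, Fcgr2b and Alox15 kept their calls (edgeR adjusted p = 0.0273, 0.0349 and 0.0451) and the other called genes of this list, apart from Chi3l1, Chia, Retnla and Arg1, did not. Of those that lost their calls, Pparg had a larger log2 fold change with it (0.65, against 0.39 without it), Ccl24 nearly the same (-1.04), and Ccl17 (1.34), Irf4 (0.36), Matk (0.15) and Tgm2 (-0.081) smaller ones.

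Among epithelial targets of interleukin 13, 2 of 7 tested genes were called higher and 1 lower, beside 13.2% and 11.4% of all tested genes. The anion exchanger Slc26a4 rose 9.80-fold (edgeR adjusted p = 6.82e-07) and Spdef, a regulator of mucous cells, 1.40-fold, while Postn, a matrix protein, fell 1.23-fold. With the clock covariate Slc26a4 kept its call at a log2 fold change of 2.61, against 3.29 without it, as did Postn at -0.41, and Spdef lost its call at 0.38, against 0.49 without it (edgeR adjusted p = 0.413). Clca1, a secreted goblet cell product, spread from 22 to 920 counts in CNC rats and from 1 to 300 counts in air rats and was not called (edgeR adjusted p = 0.164). The mucin Muc5ac had 14 counts over the CNC libraries and 4 over the air libraries.

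Proteins reported to bind Chi3l1 moved in both directions. Of 6 tested genes 3 were called higher and 2 lower, beside 13.2% and 11.4% of all tested genes. Lgals3, a galectin, rose 2.36-fold, at 580.3 ± 67.3 CPM in CNC rats and 246 ± 37.4 CPM in air rats (SD, n = 6 each, edgeR adjusted p = 6.82e-07). The hyaluronan receptor Cd44 rose 1.23-fold and the proteoglycan Sdc1 1.13-fold. The prostaglandin receptor Ptgdr2 fell 1.28-fold and Ager, a receptor abundant in alveolar type 1 cells, fell 1.14-fold. The Ptgdr2 call was lost without CNC replicates 3 or 5 or air replicate 1 in turn (edgeR adjusted p from 0.0506 to 0.0609) and the Ager call without CNC replicates 1, 2, 3 or 5 or air replicates 2, 3 or 6 in turn (edgeR adjusted p from 0.0509 to 0.0695) or without CNC replicates 3 and 6 together, so that 3 genes of the list were called without CNC replicate 3 or CNC replicate 5. Tmem219 was not called (edgeR adjusted p = 0.799), and Il13ra2 had 28 counts over each group. With the clock covariate Lgals3 and Sdc1 were the 2 genes of this list still called, while Cd44 (log2 fold change 0.34) and Ptgdr2 (-0.34) lost their calls at nearly the same size and Ager at -0.026, and leaving out air replicates 4 and 5 together ended the Sdc1 call.

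Genes listed for chitin and glucan recognition rose modestly where they were called. Of 6 tested genes 3 were called higher and 0 lower, by edgeR at an adjusted p of 0.05. Over all tested genes 13.2% were called higher and 11.4% lower. Clec7a, the beta-glucan receptor dectin, rose 1.28-fold, Tlr2 1.27-fold and the adaptor Card9, which signals below dectin, 1.64-fold (edgeR adjusted p = 0.00438, 0.00476 and 0.000158). Nod2, Mrc1 and Lysmd3 were not called (edgeR adjusted p = 0.0536, 0.203 and 0.672). With the clock covariate Card9 alone of these genes kept its call (edgeR adjusted p = 0.0378). Clec7a lost its call at a larger log2 fold change (0.43, against 0.36 without the covariate) and Tlr2 at a smaller one (0.073, against 0.34).

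Markers of several cell types that can make these proteins differed between the groups as well. Over all tested genes 13.2% were called higher and 11.4% lower. The summed CPM of 14 alveolar macrophage markers ran from 962 to 1306 in CNC rats and from 715 to 825 in air rats (exact permutation adjusted p = 0.00594 over 11 lists). Of 12 tested markers 8 were called higher and 2, Fabp4 and Car4, lower. The most abundant were Plet1 (350 CPM in CNC rats, 180 CPM in air rats) and Mrc1 (210 CPM in CNC rats, 180 CPM in air rats), which was not called. Marco was listed at 0 in every library. Whether that zero comes from the annotation or counting behind the table was not tested. Neutrophil markers (16 genes) ran from 466 to 726 CPM in CNC rats and from 190 to 293 CPM in air rats. S100a9 made up the largest part of this sum, at 275.4 CPM in CNC rats and 73.22 CPM in air rats. Cd177 stood at 119.1 CPM in CNC rats and 17.04 CPM in air rats. Of 13 tested markers 7 were called higher and 1, Ngp, lower, while Csf3r, Mmp8, Mmp9, Camp and Retnlg were not called. Alveolar type 2 cell markers (12 genes) ran from 54502 to 67176 CPM in CNC rats and from 37396 to 49575 CPM in air rats. By edgeR 10 of 12 were higher and 0 lower, and Sftpb and Etv5 were not called. The largest part of that sum was Lyz2, at 25163 CPM in CNC rats and 15636 CPM in air rats. The alveolar macrophage, neutrophil and alveolar type 2 cell sums each had no overlap between the groups and an exact permutation adjusted p of 0.00594. Club cell markers ran from 5294 to 6590 CPM in CNC rats and from 5889 to 7659 CPM in air rats, and ciliated cell markers from 538 to 676 CPM in CNC rats and from 639 to 787 CPM in air rats (exact permutation adjusted p = 0.0239 and 0.00953), and 4 of 9 tested club cell markers were called lower and 1, Hp, higher (2.64-fold, edgeR adjusted p = 5.26e-07). Most of the ciliated cell sum was Tppp3, at 448 CPM in CNC rats and 580.0 CPM in air rats, which was called lower, and the other 6 of 7 tested markers were not called, with Foxj1 at 47.0 CPM in CNC rats and 46.1 CPM in air rats. Monocyte and interstitial macrophage markers ran from 742 to 879 CPM in CNC rats and from 800 to 894 CPM in air rats (exact permutation adjusted p = 0.293). The largest parts of this sum were Lyve1 (307 CPM in CNC rats, 367 CPM in air rats) and Csf1r (264 CPM in CNC rats, 298.5 CPM in air rats). Of 10 tested markers 3 were called lower, Lyve1, Csf1r and Plac8. The 5 called higher were Cd14, Itgam and the complement genes C1qa, C1qb and C1qc. The part of these cell types in the changes of Chi3l1, Chia, Retnla, Arg1 and Chit1 was not tested.

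Markers of cells of allergic inflammation were split. The summed eosinophil markers (8 genes) ran from 52.9 to 65.8 CPM in CNC rats and from 52.7 to 77.5 CPM in air rats (exact permutation adjusted p = 0.768). Almost all of that sum was Siglec8 (45.4 CPM in CNC rats, 32.8 CPM in air rats) and Alox15 (10.5 CPM in CNC rats, 24.6 CPM in air rats). Of 3 tested markers Siglec8 was called higher and Alox15 lower, so their changes offset each other in the sum. The eosinophil granule gene Epx had 10 counts over the CNC libraries and 2 over the air libraries, and Prg2 had 18 over the CNC libraries and 26 over the air libraries. Mast cell and basophil markers summed to between 318 and 365 CPM in CNC rats and between 355 and 397 CPM in air rats (exact permutation adjusted p = 0.0159). Most of it was Kit (320 CPM in CNC rats, 357 CPM in air rats), so the sum mainly follows Kit. Ms4a2, at 0.861 CPM in both groups, was not called. Of 3 tested markers Hdc was called higher, at 16.6 CPM in CNC rats and 11.3 CPM in air rats (1.47-fold, edgeR adjusted p = 0.000514), and Kit lower, and the mast cell protease Cpa3 had 36 counts over the CNC libraries and 54 over the air libraries. Red cell markers ran from 1956 to 2610 CPM in CNC rats and from 2916 to 3709 CPM in air rats (exact permutation adjusted p = 0.00594). Of 6 tested red cell markers 5 were called lower, beside 11.4% of all tested genes. Heart muscle markers ran from 12.6 to 122 CPM in CNC rats and from 12.2 to 413 CPM in air rats (exact permutation adjusted p = 0.293), and the calls of all 5 genes held with their first principal component as a covariate.

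**Figure D5:**
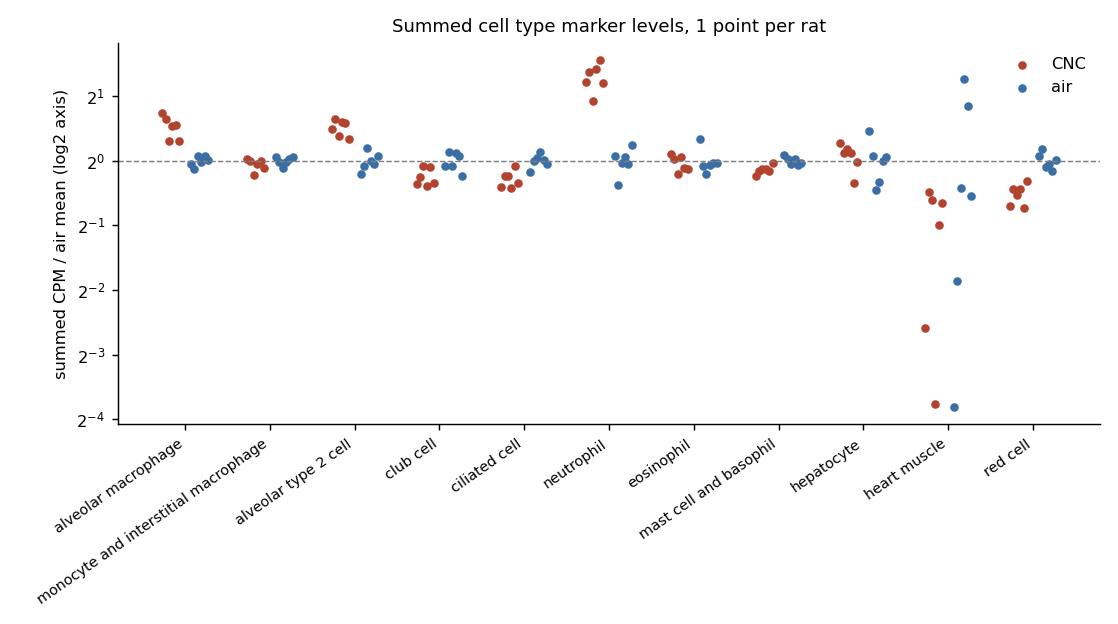
Summed CPM of 11 marker lists in each rat divided by the mean of the 6 air rats (vertical axis, log2 scale), with CNC in red at the left and air in blue at the right of each list. Neutrophil, alveolar macrophage and alveolar type 2 cell sums of every CNC rat lie above those of every air rat, red cell sums of every CNC rat lie below, and eosinophil sums overlap.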

How the data were processed

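The authors deposited 1 table of raw counts per gene symbol for 12 libraries, with no normalization. Tools listed without roles in the submitters' processing notes were HTSeq 0.11.2, SAMtools 1.8, Cufflinks, HISAT2 2.1.0, Trimmomatic 0.35 and bcl2fastq 2.19. Per the labels' protocols, libraries were stranded, made from polyadenylated RNA and amplified over 12 cycles. The build Rnor6 stands in the table's name, and its annotation and strand setting were not given in the sources used here, so overlapping and near-identical genes are uncertain. Sequences come from RefSeq (GRCr8), used for names, neighbours and promoter windows.

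Counts were filtered by filterByExpr (minimum count 10, minimum total 15), scaled by TMM and tested over 15019 genes with edgeR 4.0.16 (glmQLFit, glmQLFTest) in R 4.3.3, with Benjamini-Hochberg adjustment at 0.05. An SE is the size of the log2 fold change over the root of F. Log2 CPM used a prior count of 2, and count ratios a pseudocount of 2. Exact permutation tests were 2-sided over all splits or pairings. Their 95% intervals hold the shifts that the test does not refuse. Code was tested on simulated data. Alternatives used DESeq2 1.42.0 and limma 3.58.1, and figures matplotlib 3.10.9.

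The genes and lists were chosen with earlier results of these data known. Named genes were the 5, all tested family genes, type 2 cytokines and Chi3l1 partners, a fixed panel, up to 4 called genes per direction of the other lists by adjusted p, the 3 most abundant markers of a list and the 3 nearest profiles. Only some of these are printed. The clock and heart muscle covariates and the 2 paired exclusions of rats were taken over from an earlier analysis of these data. The 5 family ratios were added after seeing the data. Rats were housed 3 per cage, and shared cages were not analysed here. Replicate numbers only name a rat. No 2 libraries looked alike beyond sampling noise (chi-square per degree of freedom from 2.60 to 7.93 over 30 pairs within groups, where noise alone gives 1). Amplified reads are not independent molecules.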

Additional observations from a re-analysis of the deposited data

Results flagged for a closer look

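The summed level of 8 eosinophil markers in air replicate 1 was 77.5 CPM, apart from the other air rats, of which the next highest had 59.7 CPM. The gap was 0.718 of the range of the 6 air rats. In the mean of the air rats, almost all of this sum was Siglec8 (32.8 CPM) and Alox15 (24.6 CPM). Chance flags about 1 in 20 groups, and 32 groups were looked at, covering the 5 genes and 11 marker sums in CNC rats and in air rats. None of the 5 genes had such a rat in either group.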

How the results depend on the processing

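The rises of Chi3l1, Chia, Retnla and Arg1 kept their direction and call in each of 25 alternatives, with log2 fold changes from 1.62 to 1.94, 1.78 to 1.91, 1.95 to 3.10 and 0.78 to 0.93. Chit1 kept its call in 24 of 25 and lost it with the clock covariate (-0.28). That covariate also gave 882 called genes (554 higher, 328 lower), against 3691 (1981 higher, 1710 lower), and gave 2 Chi3l1 partners, 8 alternative activation targets, 4 genes of arginine metabolism, 1 recognition gene, 0 receptor and signal genes and 0 cytokines called. The covariate differs between the groups, and the cause was not tested. Without CNC replicates 3 and 6 together 5 recognition genes were called, and without air replicates 4 and 5 together 5 epithelial targets. Leaving out each rat gave from 3 to 5 called Chi3l1 partners and from 3 to 6 called receptor and signal genes. It moved the Chi3l1 to Chia log2 difference between -0.086 and 0.11, on both sides of 0, and the Chia to Retnla one between -1.005 and -0.64, with the call lost in 9 of the 13 alternatives. Scaling by library size alone gave 3833 called genes, 1683 higher and 2150 lower. No scaling moved the median of all genes beyond -0.03. The counts of Il4, Il13 and Nos2 are too low at this depth to compare. No paired analysis was possible because the labels give no number or cage that links a CNC rat to an air rat.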
